A study of Mus musculus with 12 samples.

Results

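The Usp17l genes encode a family of mouse deubiquitinases, and the 5 members described here are Usp17la, Usp17lb, Usp17lc, Usp17ld and Usp17le. They were taken by symbol from the annotation of an Affymetrix array, each having 1 probe set annotated to that gene alone, among 22180 genes measured in this way. The probe sets were 17481334 for Usp17la, 17494438 for Usp17lb, 17481200 for Usp17lc, 17494162 for Usp17ld and 17494431 for Usp17le, and 0 probe sets were shared by a member and another named gene. Their signals were read on 12 arrays of mouse embryonic stem cells (ES cells), in 4 groups of 3. All cells carried a tdTomato reporter under control of MERVL, an endogenous retrovirus active in 2-cell embryos. In the KO+Mut group, cells with Dppa2 and Dppa4 knocked out had received SUMO-deficient Dppa2 and Dppa4 as GFP plasmids. In the KO+WT group, the same knockout cells had received wild-type Dppa2 and Dppa4 as GFP plasmids. The KO group was the Dppa2/4 knockout line without add-back, and the parental group was the reporter line with both genes intact. Per the labels, both add-back groups were made by lipofection and sorted for GFP, and no sort is stated for KO or parental cells, so that transfection, sorting and the added proteins cannot be told apart in a comparison with either. The labels do not say how many clones the knockout line came from, and they call the 3 samples of a group biological replicates without saying what separates them, so the p-values measure the spread between these samples.

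Deubiquitinases remove ubiquitin, a small protein tag that marks other proteins for degradation or changes their function, and the USP class to which this family belongs does so with a cysteine protease domain. Usp17la, Usp17lb, Usp17lc, Usp17ld and Usp17le carry the older names Dub1, Dub1a, Dub2, Dub2a and Dub3 in RefSeq. Dub1 and Dub2 are known from blood cells, where cytokines induce them as immediate early genes, and the human relatives of the family act on regulators of the cell cycle. In ES cells, Usp17l transcripts are known as part of the program of 2-cell embryos, which is switched on in a small, changing fraction of the culture. Dppa2 and Dppa4 are DNA-binding proteins that act upstream of that program, and SUMO is a small protein attached to chromatin factors that is known to restrain it.

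The members lie in 1 region of chromosome 7 in the order Usp17ld, Usp17lc, Usp17le, Usp17lb and Usp17la. RefSeq promoter windows of GRCm38.p6, which span 250 bases before to 50 bases after an annotated start, matched 4 of the 5 members. These sequences are shown because they are much alike. Over the 214 positions that all 4 windows shared in a MAFFT alignment, 184 (86%) were identical in all 4. The stretches below are read 5′ to 3′ on the gene's strand and end at or before each gene's annotated start, with CCACACCC, GATTGG and TATAAA in capitals.
Usp17la (chr7:104856837-104857000, plus strand): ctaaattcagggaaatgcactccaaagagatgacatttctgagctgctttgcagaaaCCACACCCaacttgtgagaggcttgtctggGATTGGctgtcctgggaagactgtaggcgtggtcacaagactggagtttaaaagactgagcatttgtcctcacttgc
Usp17lb (chr7:104842584-104842747, minus strand): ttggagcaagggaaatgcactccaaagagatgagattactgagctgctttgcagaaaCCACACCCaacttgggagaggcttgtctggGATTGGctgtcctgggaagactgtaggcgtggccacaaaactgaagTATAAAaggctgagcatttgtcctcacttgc
Usp17lc (chr7:103416475-103416638, plus strand): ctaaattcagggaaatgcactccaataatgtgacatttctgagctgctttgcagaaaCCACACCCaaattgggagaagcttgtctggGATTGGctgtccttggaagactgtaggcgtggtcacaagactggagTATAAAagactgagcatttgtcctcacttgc
Usp17ld (chr7:103252585-103252748, minus strand): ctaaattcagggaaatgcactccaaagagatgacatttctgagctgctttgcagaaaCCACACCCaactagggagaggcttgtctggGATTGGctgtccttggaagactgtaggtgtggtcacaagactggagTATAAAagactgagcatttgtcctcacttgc

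Between pairs of windows, identity over the aligned bases was 96.8% for Usp17lc and Usp17ld and 89.5% for Usp17lb and Usp17lc, the closest and the most distant pair. The letters CCACACCC and GATTGG, which holds the CCAAT box read from the other strand, stood in all 4 windows. TATAAA, the TATA box sequence, stood in Usp17lb, Usp17lc and Usp17ld, beginning 31, 88 and 110 bases before the annotated start. Usp17la had TTTAAA at the aligned place, which is A2T counted from 1 at the first base of TATAAA. Searched on both strands of all 32851 RefSeq promoter windows, CCACACCC was found in 3.56%, GATTGG in 16.1% and TATAAA in 13.6%. These 3 motifs do not overlap each other in the stretches above and were chosen after the alignment had been seen. The letters GATTNAATC, the core of the sequence bound by mouse Dux, an activator of 2-cell genes, occurred in 0 of the 4 windows and in 0.268% of all windows. With letters this rare and 4 windows this much alike, that count cannot show whether Dux binds. Sequence outside the windows was not searched. CpG dinucleotides numbered 1 in the windows of Usp17la, Usp17lb and Usp17lc and 0 in that of Usp17ld, against a median of 7 over all windows.

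Across the series, array medians lay between 3.73 and 3.88 (log2) and lower quartiles between 2.36 and 2.47, and over all probe sets Pearson's r was 0.964 to 0.987 for the 66 array pairs. The number of arrays limits the precision, and no detection calls were used, so that signals near the lower quartile cannot be separated from background. The ES cell markers, a list of 10 genes that includes Pou5f1 and Nanog, averaged between 8.64 and 8.85 on every array, with 0 of 10 past the limma threshold in any of the 6 comparisons and at most 3 at an unadjusted p under 0.05. Trophectoderm markers (8 genes, 4.54 to 5.09) and fibroblast markers (7 genes, 4.22 to 4.47) also gave 0 calls, with at most 2 at an unadjusted p under 0.05. The targeted gene Dppa2 had signals of 11.12, 11.30 and 11.17 in KO+Mut, 10.79, 11.34 and 11.11 in KO+WT, 8.13, 8.69 and 8.63 in KO, and 9.35, 9.81 and 10.17 in parental cells. Dppa4 had 10.55, 10.67 and 10.39 in KO+Mut, 10.09, 10.58 and 10.49 in KO+WT, 7.92, 7.63 and 7.31 in KO, and 8.24, 8.58 and 8.56 in parental cells. For both genes all KO arrays were below all parental arrays and all add-back arrays above them. Dppa2 differed by -1.29 (log2, SE 0.21, limma adjusted p = 0.0259) and Dppa4 by -0.84 (SE 0.18, adjusted p = 0.102) between KO and parental cells. The Dppa2 call was lost without parental replicates 2 and 3 (adjusted p = 0.131 and 0.139), without KO replicates 1, 2 and 3 (0.112, 0.068 and 0.0669), in the fit of those 6 arrays alone (0.126) and over all probe sets (0.0847). The labels do not place the probes relative to the deletion, and a probe outside it checks nothing.

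In the plot of array signals, every add-back array lay above all KO and parental arrays for each of the 5 members. The share of all genes separated in this way was not counted. On KO+WT replicate 1, however, Usp17lb was below the array's median and Usp17lc below its lower quartile. Usp17le had the widest range. Its signal (log2) was 9.78, 9.97 and 10.19 in KO+Mut cells. It was 9.0, 9.76 and 10.04 in KO+WT cells, 2.04, 3.09 and 2.61 in KO cells, and 5.0, 6.02 and 5.70 in parental cells. KO cells were thus below parental cells on every array, and the add-backs, which overlapped each other, were above both. Usp17ld, the Dub2a gene, had 9.11, 9.25 and 9.51 in KO+Mut cells. It had 8.39, 9.02 and 9.43 in KO+WT cells, 5.56, 6.05 and 5.65 in KO cells, and 6.09, 5.96 and 6.21 in parental cells. Here KO and parental arrays overlapped, and each add-back array exceeded all of them.

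Usp17la, the Dub1 gene, had 5.95, 6.18 and 5.82 in KO+Mut cells. It had 5.32, 5.83 and 5.92 in KO+WT cells, 3.10, 3.01 and 3.72 in KO cells, and 3.76, 3.82 and 4.22 in parental cells. Parental and KO arrays did not overlap, although the highest KO array and the lowest parental array were close. Usp17lb, the Dub1a gene, had 5.52, 5.80 and 6.20 in KO+Mut cells. It had 3.36, 5.36 and 5.87 in KO+WT cells, 1.81, 1.64 and 1.31 in KO cells, and 2.07, 2.13 and 2.35 in parental cells. All 6 KO and parental arrays of Usp17lb were below the lower quartile of their own array, where a further decrease may not be visible. Usp17lc, the Dub2 gene, had 5.0, 5.0 and 6.06 in KO+Mut cells. It had 2.34, 4.90 and 5.47 in KO+WT cells, 1.27, 1.72 and 1.48 in KO cells, and 1.41, 1.80 and 1.5 in parental cells. It too was below the lower quartile on all 6 KO and parental arrays, and also on KO+WT replicate 1.

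**Figure D1:**
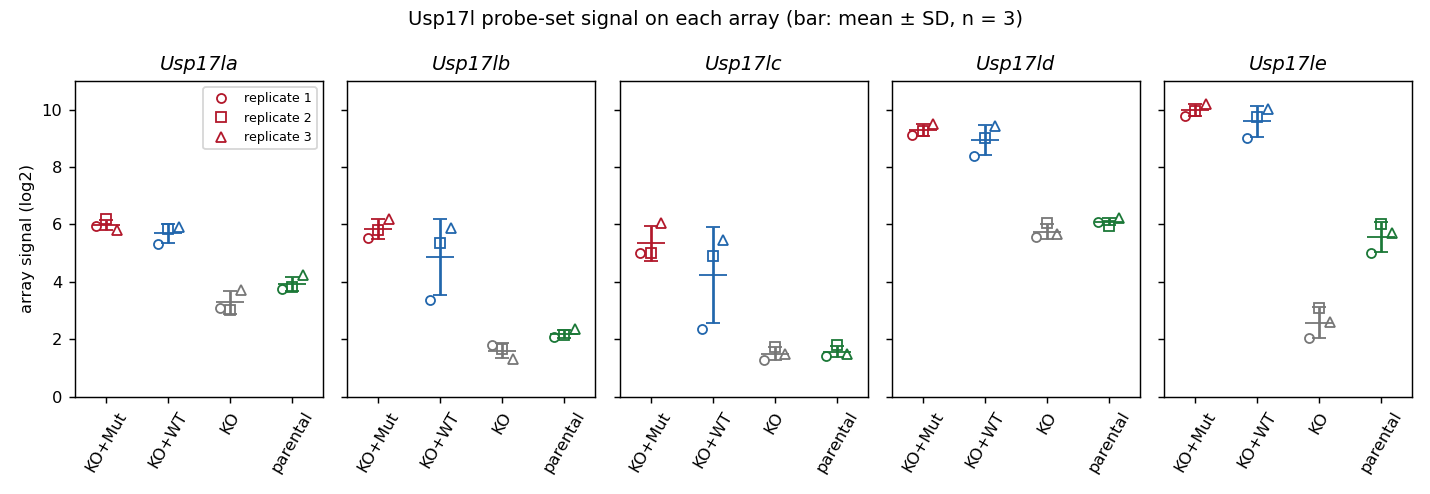
Signal (log2, vertical axis) of each Usp17l probe set on every array, by group, with the mean ± SD of 3 arrays as a bar. Both add-back groups lie above KO and parental cells for every member, KO lies clearly below parental cells for Usp17le (2.58 ± 0.53 against 5.57 ± 0.52), and replicate 1 (circles) is the lowest KO+WT array in every panel.

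The SUMO-deficient add-back was set against KO cells, in which the cell's own Dppa2 and Dppa4 are disrupted. Transfection, sorting and the added proteins cannot be told apart here. All 5 members rose over KO cells, Usp17le by 7.40 (log2, SE 0.32, adjusted p = 1.69e-07, n = 3 arrays per group), with a 95% interval of 6.71 to 8.08. Usp17lb rose by 4.25 (SE 0.46, adjusted p = 0.000398) and Usp17lc by 3.86 (SE 0.59, adjusted p = 0.00493). Usp17ld rose by 3.54 (SE 0.22, adjusted p = 2.12e-06) and Usp17la by 2.71 (SE 0.21, adjusted p = 1.61e-05). The median difference of the 5 members was 3.86 against -0.01 over all genes. Of all 22180 genes 1.12% were called higher in this comparison (248 higher and 34 lower, or 194 and 72 with arrays centred on their medians). Usp17le was below the array median on all 3 KO arrays and below the lower quartile on 1 of them, and Usp17lb and Usp17lc were below the lower quartile on all 3, so these differences start from signals not shown to be above background and no fold is given for them. In these bulk samples, fewer cells transcribing a gene and less RNA per cell cannot be told apart.

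In cells given the wild-type proteins 4 of the 5 members rose. Over KO cells, Usp17le rose by 7.02 (log2, SE 0.32, adjusted p = 3.26e-07, n = 3), with an interval of 6.33 to 7.70. Usp17lb rose by 3.28 (SE 0.46, adjusted p = 0.00411), Usp17ld by 3.19 (SE 0.22, adjusted p = 7.3e-06) and Usp17la by 2.42 (SE 0.21, adjusted p = 6.16e-05). Usp17lc, with a difference of 2.75 (SE 0.59), did not pass the threshold (adjusted p = 0.0526). Its signal on KO+WT replicate 1 was below the lower quartile of that array. In this comparison 4 of 5 members were called, against 0.73% of all genes called higher (162 higher and 22 lower, or 112 and 37 after centring). The median was 3.19 over the members and 0.00 over all genes. Without KO+WT replicate 1 the Usp17lc difference was 3.70 (adjusted p = 3.6e-05) and 5 of 5 members were called. In a fit of the 6 KO+WT and KO arrays, Usp17lb had an adjusted p of 0.0507. Both add-back comparisons share the KO arrays, so their values for a member are not independent.

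**Figure D2:**
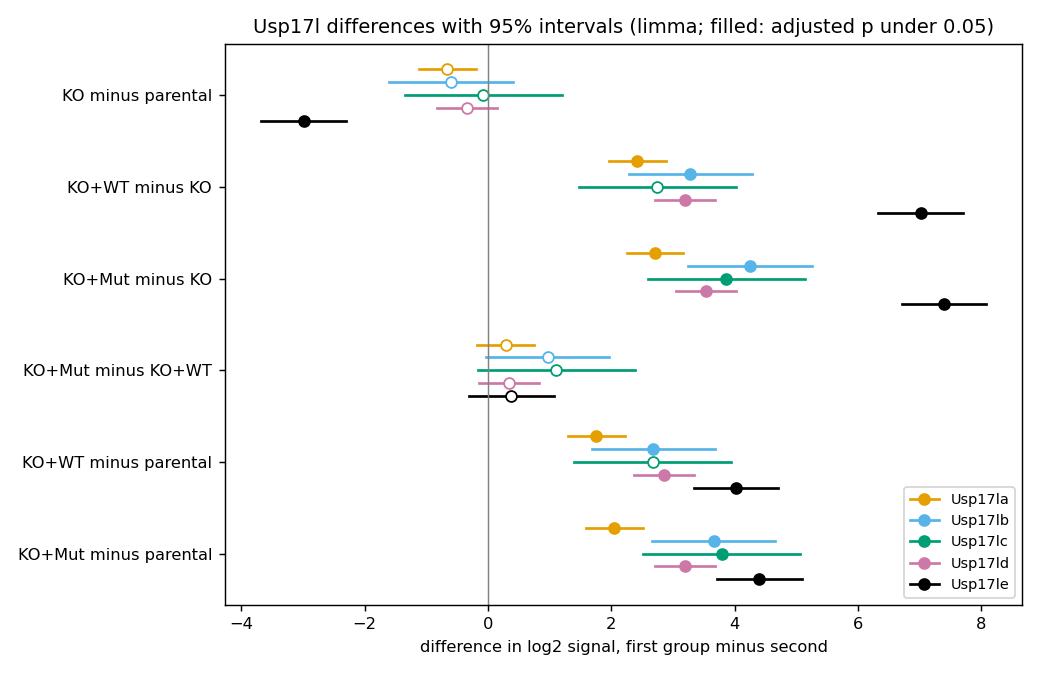
Difference in log2 signal (horizontal axis, first group minus second) of each member in the 6 comparisons, with its 95% interval, filled where the adjusted p was under 0.05. Usp17le is set apart on the right in both comparisons of an add-back with KO (7.02 and 7.40) and on the left in KO against parental cells (-2.99), and every interval of KO+Mut against KO+WT includes 0.

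KO+WT replicate 1 stood apart within its group. Against the mean of KO+WT replicates 2 and 3 its difference was -2.84 for Usp17lc, -2.26 for Usp17lb, -0.90 for Usp17le, -0.84 for Usp17ld and -0.56 for Usp17la. Over all genes the median of this difference was 0.02. On the same array Dppa2 and Dppa4 each differed by -0.44 from the other KO+WT arrays. A 2C-like list of 40 measured genes, known from 2-cell embryos and without the Usp17l members, had a mean of 5.26 on KO+WT replicate 1, against 6.05 and 6.43 on replicates 2 and 3. The mean of the 5 members was 5.68 there and 6.98 and 7.35 on the other KO+WT arrays. The part of the Dppa2 and Dppa4 signal in these values was not tested.

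**Figure D3:**
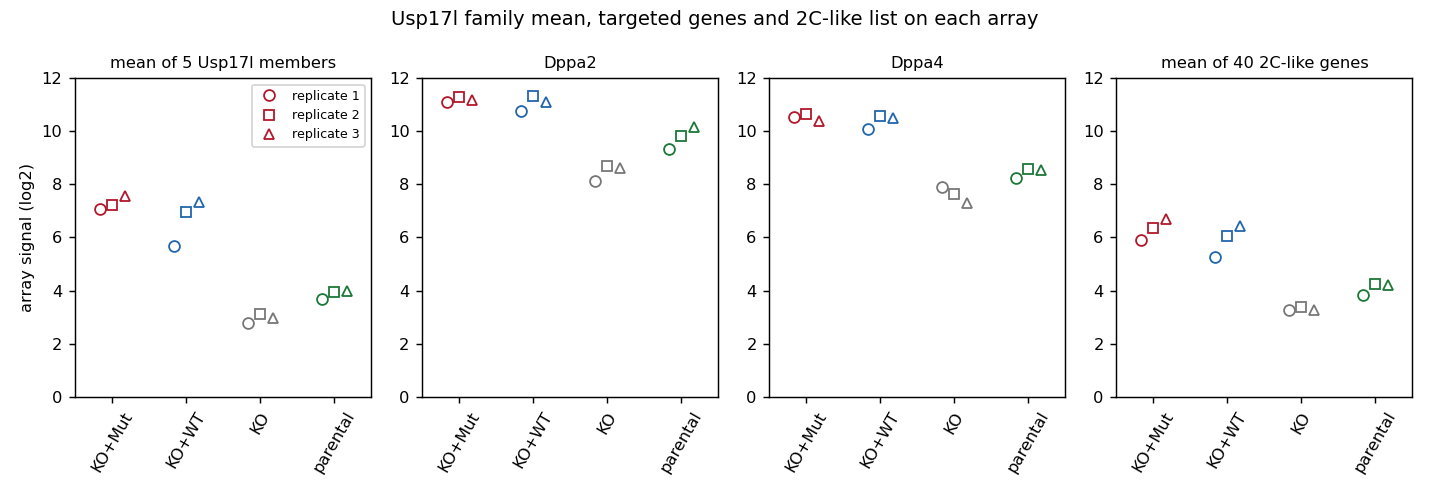
Signal (log2, vertical axis) on every array of the mean of the 5 members, of Dppa2, of Dppa4 and of the mean of 40 2C-like genes, with replicate numbers as symbols. KO+WT replicate 1 is the lowest add-back array in all 4 panels, and the family mean is 7.07 to 7.55 in KO+Mut, 5.68 to 7.35 in KO+WT, 2.76 to 3.10 in KO and 3.67 to 3.99 in parental cells.

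Setting the add-backs against each other asked whether SUMO modification of Dppa2 and Dppa4 changes their effect, and it is the comparison matched for transfection and sorting. Group means of all 5 members were higher with the mutant proteins, and 0 of 5 passed the threshold. Usp17lc differed by 1.11 (95% interval -0.16 to 2.39) and Usp17lb by 0.97 (-0.03 to 1.97). Usp17le differed by 0.38 (-0.31 to 1.07), Usp17ld by 0.34 (-0.14 to 0.83) and Usp17la by 0.29 (-0.17 to 0.75), with limma adjusted p = 1 for all 5. The groups overlapped for every member, so the levels did not differ beyond their spread, but the intervals do not exclude a 3.93-fold higher Usp17lb or a 5.24-fold higher Usp17lc signal with the mutant. By limma 0 genes of 22180 were called in either direction (0%), 675 had an unadjusted p under 0.05, and 0 members were among these. These values come from a fit without pairing. With the replicate block 0 of 5 members were called, at limma adjusted p from 0.888 to 0.913, with an SE of 0.18 for Usp17le. Same-numbered arrays of these groups were taken as pairs. KO+Mut was the higher array in 3 of 3 pairs for Usp17lb, Usp17lc, Usp17ld and Usp17le and in 2 of 3 for Usp17la. The share of all genes with 3 of 3 such pairs was not counted. The pair of replicates 1 gave differences of 2.16 for Usp17lb and 2.66 for Usp17lc, while the other pairs gave 0.43 and 0.32 for Usp17lb and 0.10 and 0.59 for Usp17lc. Without KO+WT replicate 1 the differences were 0.22 for Usp17lb, 0.17 for Usp17lc, 0.11 for Usp17la, 0.08 for Usp17le and 0.06 for Usp17ld.

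KO cells were set against parental cells to see what the loss of Dppa2 and Dppa4 changes in the reporter line itself. Usp17le fell by 2.99 on the log2 scale (SE 0.32, adjusted p = 0.00102, n = 3), with a 95% interval of -3.68 to -2.30. The differences within the 3 number pairs were -2.96, -2.93 and -3.09. As the KO signal of Usp17le was near the lower quartile, the share of signal that remained is not given. The other 4 members did not pass. Usp17la differed by -0.66 (SE 0.21, adjusted p = 0.442), Usp17lb by -0.60 (SE 0.46, adjusted p = 0.933), Usp17ld by -0.34 (SE 0.22, adjusted p = 0.896) and Usp17lc by -0.08 (SE 0.59, adjusted p = 0.999). These SEs use the spread shared by all 12 arrays, KO+WT replicate 1 included. In the limma fit of the 6 KO and parental arrays, the SE was 0.16 for Usp17lb (adjusted p = 0.367) and 0.16 for Usp17lc (adjusted p = 0.973). With 1 of 5 called, 0.203% of all genes were called lower, that is 45 genes, and 97 with a replicate block. Usp17lb and Usp17lc were below the lower quartile on all 3 parental arrays, where a further decrease may not be visible. Among the 4 that did not pass, the groups also did not overlap for Usp17la and Usp17lb, though the share of all genes without overlap was not counted. The 95% interval of Usp17la ran from -1.12 to -0.20. Whether the decrease of Usp17le differed from that of the other members was not tested. Primitive endoderm markers also had lower means in KO cells. Their mean over 8 genes was 5.22 to 5.61 in KO and 5.80 to 6.36 in parental cells, 8 of 8 differed in this direction, 0 of 8 passed the limma threshold and 5 had an unadjusted p under 0.05. Their part in the Usp17le value was not tested. In the add-backs, their mean was 5.28 to 5.45 in KO+Mut and 5.45 to 5.56 in KO+WT cells.

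Relative to parental cells, 5 of 5 members rose in KO+Mut and 4 of 5 in KO+WT cells. In KO+Mut cells Usp17le rose by 4.40 (SE 0.32, adjusted p = 3.15e-05) and Usp17lc by 3.79 (SE 0.59, adjusted p = 0.00653). Usp17lb rose by 3.66 (SE 0.46), Usp17ld by 3.20 (SE 0.22) and Usp17la by 2.05 (SE 0.21), with adjusted p of 0.00166, 3.15e-05 and 0.000383. In this comparison 0.654% of all genes were called higher, 145 genes beside 75 lower (122 and 109 after centring), and 353 were higher with the replicate block. In KO+WT cells Usp17le rose by 4.03 (SE 0.32, adjusted p = 7.32e-05), Usp17ld by 2.86 (SE 0.22), Usp17lb by 2.68 (SE 0.46, adjusted p = 0.0227) and Usp17la by 1.76 (SE 0.21, adjusted p = 0.00165). Usp17lc differed by 2.67 (SE 0.59) and did not pass (adjusted p = 0.0767), but did with the replicate block (0.0339) and without KO+WT replicate 1 (6.56e-05). In this comparison 0.32% of all genes were called higher, 71 genes, and 237 with the block. The Usp17lb call was lost without parental replicates 1, 2 and 3 (adjusted p = 0.0867, 0.097 and 0.0768), without KO+WT replicates 2 and 3 (0.0976 and 0.0653) and in the fit of those 6 arrays alone (0.141). The order of the means was thus KO+Mut, KO+WT, parental and KO for every member. Of these groups, KO+Mut and KO+WT did not differ beyond their spread. Parental and KO differed past the threshold for Usp17le alone, while Usp17lb and Usp17lc were below the lower quartile in both. On the same scale Dppa2 was 1.42 and 1.31 above parental cells in KO+Mut and KO+WT cells, and Dppa4 2.08 and 1.93 above.

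Few deubiquitinase genes outside the family passed the test, as did few genes on the whole array. Of all genes, 1.12% were called higher in KO+Mut and 0.73% in KO+WT against KO cells. The small number of calls in these lists is thus near the share over all genes. Of 51 measured USP genes outside the family, 0 rose and 0 fell in KO+Mut against KO cells, with a median of -0.14 and a range of -0.74 to 0.50. In KO+WT against KO cells 0 of the 51 passed, with a median of -0.13 and a range of -0.73 to 0.35. By limma 9 and 8 of them had an unadjusted p under 0.05. Usp46, which acts on glutamate receptors and other targets, had the smallest p in the first comparison, at -0.54 (adjusted p = 0.0501). Of 32 measured deubiquitinases of other classes, Otud6a, of the OTU class, rose by 1.30 (SE 0.20, adjusted p = 0.0049) in KO+Mut and by 1.14 (SE 0.20, adjusted p = 0.0172) in KO+WT cells, and 31 did not pass. Its KO+WT call was lost without KO replicate 2 (adjusted p = 0.0649), without KO+WT replicates 2 and 3 (0.0843 and 0.0621) and in the fit of 6 arrays (0.124). In KO against parental cells 0 of the 83 genes of both classes passed, where 0.203% of all genes were called lower. The smallest adjusted p was 0.14, of Usp26, at -0.83. Against parental cells Usp28, which stabilises cell cycle and checkpoint proteins, fell by 0.96 in KO+Mut cells (difference of -0.96, SE 0.19, adjusted p = 0.0271), the only such call among the 83 in that comparison. It was lost without parental replicates 1, 2 and 3 (adjusted p = 0.112, 0.0627 and 0.102), without KO+Mut replicates 2 and 3 (0.142 and 0.0947), after repeated quantile normalization (0.055) and over all probe sets (0.0518).

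**Figure D4:**
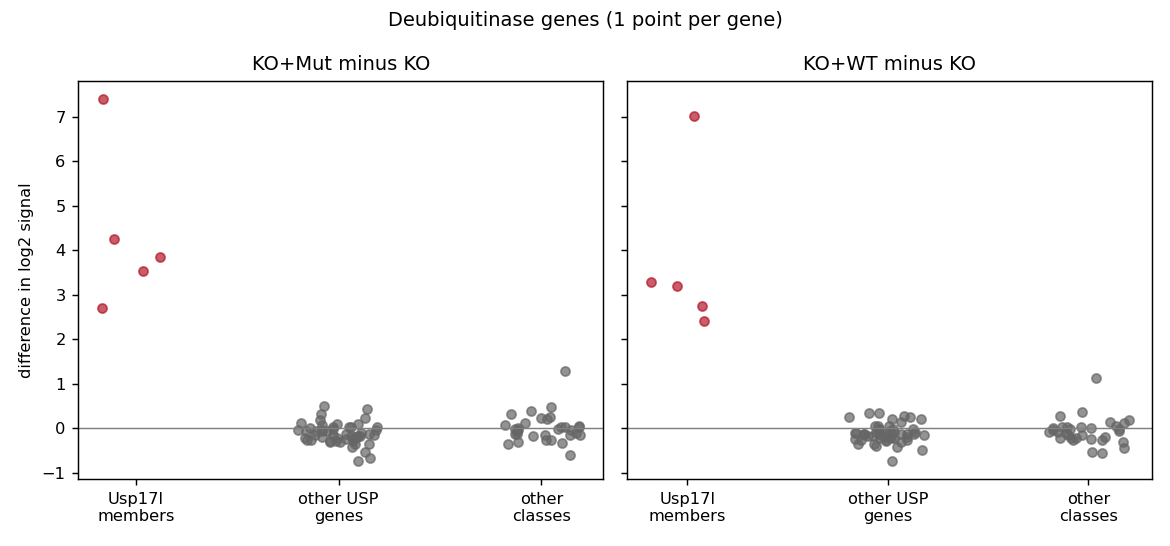
Difference in log2 signal (vertical axis) of each add-back minus KO for the 5 Usp17l members, 51 other USP genes and 32 deubiquitinases of other classes, 1 point per gene with sideways scatter for legibility. The members lie at 2.42 and above, and the other genes between -0.74 and 1.30.

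The cytokine pathways that induce Dub1 and Dub2 in blood cells were measured by 15 genes of receptors, ligands, Jak kinases and Stat5, of which 0 rose and 0 fell in any of the 6 comparisons by limma, with at most 2 at an unadjusted p under 0.05. The tyrosine kinase gene Jak1 had the smallest p of this list in both add-backs, with differences of 0.51 in KO+Mut (adjusted p = 0.156) and 0.49 in KO+WT cells (adjusted p = 0.198) against KO cells. The medians of the list were -0.02 and 0.05 there. Of all genes 1.12% and 0.73% were called higher in these comparisons, so 0 calls are usual among 15 genes. Of 7 genes whose products are reported substrates of the human relatives USP17 and DUB3, Snai1 passed. Snai1, a transcriptional repressor that drives cells out of an epithelial state, rose by 1.40 over KO cells in KO+Mut cells (SE 0.26, adjusted p = 0.0177) and differed by 1.12 in KO+WT cells (adjusted p = 0.0769). The KO+Mut call was lost without KO replicate 3 (adjusted p = 0.0826) and without KO+Mut replicate 2 (0.097). These are RNA signals, and the substrates' proteins were not measured. Blood cell markers, 7 measured genes, averaged 3.58 to 3.77 in KO+Mut, 3.52 to 3.81 in KO+WT, 3.54 to 3.71 in KO and 3.88 to 3.99 in parental cells, so that KO+Mut overlapped KO cells and both add-backs lay below parental cells. Of these 7, Cd3e, which encodes a CD3 chain of the T cell receptor complex, fell in KO against parental cells, at -1.77 (adjusted p = 0.00589). It also fell in KO+Mut against parental cells, at -1.15 (adjusted p = 0.0328), and the part of such markers was not tested.

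The genes around the family showed 0 calls, which is near the share over all genes. Of all genes 1.12% were called higher in KO+Mut and 0.73% in KO+WT against KO cells, and 0.203% lower in KO against parental cells. Between the first and the last member on chromosome 7 lay 77 other measured genes, and 5 more were taken on either side. Of these 87 neighbours 71 were olfactory receptor genes, known mainly from the sensory cells of the nose, and the rest included Trim genes and globin genes of the Hbb cluster. In KO+Mut against KO cells 0 of 87 passed, with a median of 0.00 and a range of -0.52 to 0.60. In KO+WT against KO cells the median was 0.01 and the range -0.47 to 0.65, and in KO against parental cells 0.01 and -0.49 to 0.45, again with 0 of 87 called by limma. By unadjusted p under 0.05 there were 5, 6 and 2 of these genes in the 3 comparisons, in the order given. The smallest adjusted p over the 6 comparisons was 0.0735. Usp17le, Usp17lb and Usp17la followed each other among measured genes, while 7 measured olfactory receptor genes lay between Usp17ld and Usp17lc. The RefSeq table also lists a pseudogene, Usp17le-ps, in this stretch.

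**Figure D5:**
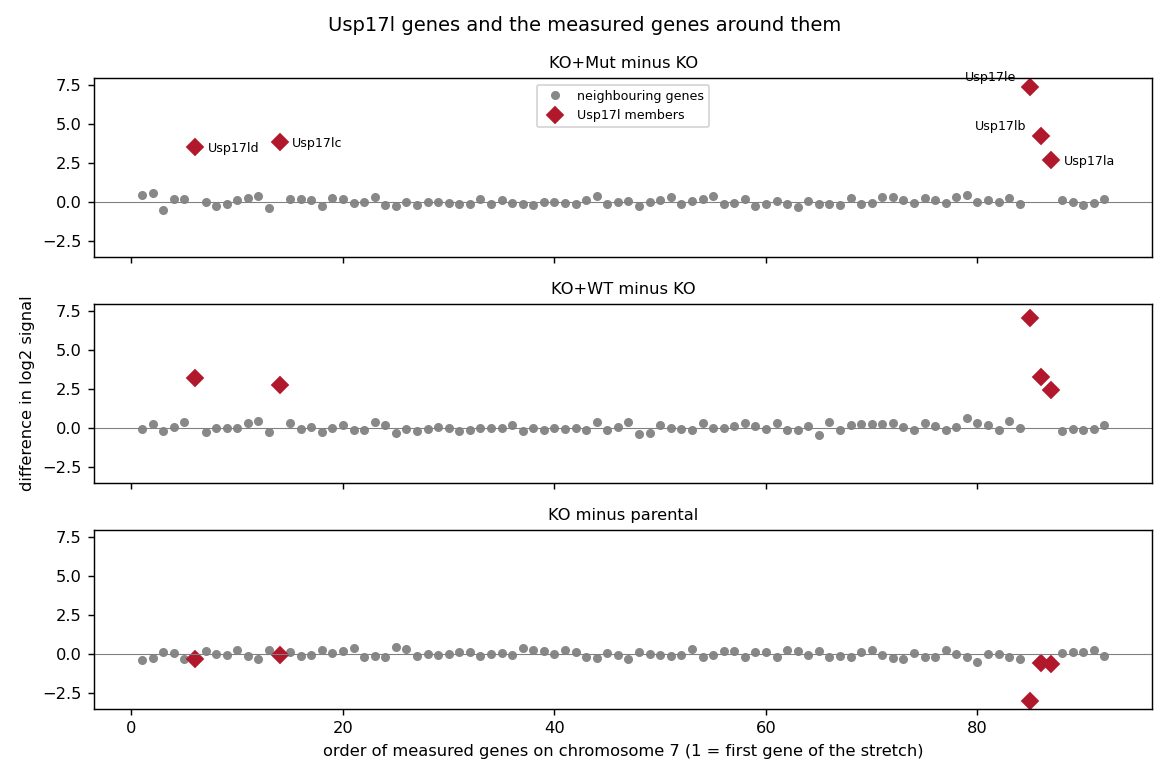
Difference in log2 signal (vertical axis) of each measured gene along the stretch of chromosome 7 that holds the family, in gene order, for 3 comparisons, with members as diamonds. The 5 members stand above 2.4 in both add-back panels while all 87 neighbours stay between -0.52 and 0.65, and in KO against parental cells Usp17le alone lies below -1.

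The likeness between members varied by pair. Over the 12 arrays Pearson's r between members ran from 0.878 for Usp17lc and Usp17le to 0.983 for Usp17lb and Usp17lc, values that the differences between groups dominate. After each group's mean had been removed, r was 0.94 for Usp17lb and Usp17lc, 0.88 for Usp17lc and Usp17ld and 0.87 for Usp17lb and Usp17ld, and 0.33 to 0.42 for Usp17la with each of the others. These values rested largely on KO+WT replicate 1. Without it, an alternative chosen after seeing the data, r over 11 arrays was 0.64 for Usp17lb and Usp17lc, 0.70 for Usp17lc and Usp17ld, 0.64 for Usp17lb and Usp17ld, and -0.27 to 0.05 for Usp17la with each of the others. The points share their arrays. The members are close copies of each other, so that a probe set may also read RNA of another member, and each gene's own share of its signal is uncertain here.

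Outside the family, the genes with signals most like a member's over the 12 arrays included Zscan4, Tdpoz and Pramel genes. The 5 nearest genes of each member made 20 distinct genes, of which 11 were on the 2C-like list. That list was chosen with earlier results of these data known, so its counts here are a description. The nearest to Usp17le was Pramel19 (r = 0.997), of a leucine-rich repeat family of germ cells and early embryos, and to Usp17ld it was the predicted gene Gm8300 (r = 0.996). The nearest to Usp17la was Gm2022 (r = 0.985), to Usp17lc Zscan4a (r = 0.986), of a family of 2-cell zinc finger genes, and to Usp17lb the chemokine gene Ccl3 (r = 0.990). These genes were picked for their likeness to a member on the same arrays, so their differences are given as a description, with no test. Against KO cells, Pramel19 differed by 8.24 in KO+Mut and 7.63 in KO+WT cells, beside 7.40 and 7.02 for Usp17le. Gm8300 differed by 5.42 and 4.79, beside 3.54 and 3.19 for Usp17ld. Ccl3, which encodes a signal that attracts immune cells, differed by 5.44 and 4.69, beside 4.25 and 3.28 for Usp17lb. Within groups, r with Usp17lb was 0.96 for Ccl3, and 0.80 without KO+WT replicate 1. For the other nearest genes, r within groups was 0.91 for Zscan4a with Usp17lc and 0.90 for Gm8300 with Usp17ld. It was 0.89 for Pramel19 with Usp17le and 0.59 for Gm2022 with Usp17la. Differences between groups thus made up much of the likeness to Usp17la. Of the 40 measured 2C-like genes outside the family, 24 rose in KO+Mut and 19 in KO+WT over KO cells and 0 fell, with medians of 2.16 and 1.06. Over all genes 1.12% and 0.73% were called higher there. In KO against parental cells 4 of the 40 fell and 0 rose, where 0.203% of all genes were called lower. The median of the list was -0.42, beside a median of -0.60 over the 5 members.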

How the data were processed

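RNA of 12 samples was hybridised to Affymetrix arrays after biotin labelling with the WT Plus kit, per the labels' protocols. The authors deposited normalized log2 signals, with a value for each probe set on each array. The submitters' processing notes name the Transcriptome Analysis Console. No source used here gives its version, background correction, summarization or genome build, and low signals may have been compressed there, which would lower the differences. Values ran from 0.264 to 12.75, from which the log2 scale was taken.

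Of 41345 probe sets, 23521 had 1 gene symbol, 1814 several and 16010 none. The Entrez identifiers of 23328 were found in RefSeq's GRCm38.p6 gene table, and 0 symbols needed updating. A gene with several probe sets was read from the one with the highest mean, which left 22180 genes. Each gene was tested by limma 3.58.1 under R 4.3.3 (functions lmFit and eBayes, 1 mean per group, 12 arrays sharing the spread), with two-sided p-values adjusted by Benjamini-Hochberg over all genes and a threshold of 0.05. The test was tried on simulated data. Promoters were aligned with MAFFT 7.526, and tables were made with Python 3.11.15 and pandas 2.3.3.

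The members and all gene lists were chosen with earlier results of these data known. Beside the 5 members, the genes named were, per list and comparison, up to 4 past the threshold by smallest p, or up to 2 where none passed, and the 5 genes of highest r per member. Of these, only those that a comparison turns on are printed.

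The titles number the replicates 1 to 3. After subtraction of group means, arrays with the same number had correlations over 0.1 in every pair for KO against parental (0.36, 0.15 and 0.42), KO+Mut against KO+WT (0.40, 0.21 and 0.47), KO+WT against parental (0.33, 0.15 and 0.31) and KO+Mut against parental (0.33, 0.13 and 0.36), so these were taken as pairs. Against KO, the replicates 2 gave 0.08 with KO+Mut and 0.06 with KO+WT, so those arrays were not. Alternatives were a replicate block, a second quantile normalization, centring on array medians, a low-signal filter at percentile 25, trend and robust variances, array weights, a fit of the 6 arrays compared, a gene's mean over its probe sets, a test over all probe sets, and the omission of each array.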

Additional observations from a re-analysis of the deposited data

How the results depend on the processing

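For the 5 members in 6 comparisons, 433 of the recomputed differences kept their direction and their side of the threshold, 8 passed where the reported one had not, 7 no longer passed and 2 changed sign. Both changes of sign were those of Usp17lc in KO against parental cells, 0.04 without parental replicate 2 and 0.03 without KO replicate 1, in a range of -0.19 to 0.04 with an array left out, and this difference passed under no setting. The calls that were lost were those of Usp17lb in KO+WT cells, given with its results, and the calls that were gained were those of Usp17lc in KO+WT cells. Against KO, where the numbers were not taken to pair arrays, the replicate block gave Usp17lc an adjusted p of 0.0296, the low-signal filter 0.0445, trend and robust variances 0.0401 and array weights 0.0202, and against parental cells array weights gave 0.027. The replicate block changed no call of a member other than those of Usp17lc. The number of members called was 5 under every setting for KO+Mut against KO and against parental cells, 1 for KO against parental cells and 0 for KO+Mut against KO+WT, and ran from 3 to 5 for KO+WT against KO and against parental cells. All 5 members passed the low-signal filter, Usp17lb and Usp17lc through their add-back signals. The Usp17lc call gained with this filter is therefore no further support for a rise in those groups. The Usp17le differences ran from 7.12 to 7.65 for KO+Mut against KO, 6.75 to 7.32 for KO+WT against KO, and -3.28 to -2.72 for KO against parental cells. The Snai1 rise over parental cells in KO+Mut (1.26, adjusted p = 0.0375) was lost without any 1 of those 6 arrays (highest adjusted p = 0.181, without KO+Mut replicate 2).

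Counts over all genes moved more than the members did. For KO against parental cells 45 genes were lower, 97 with the replicate block, 26 in the fit of 6 arrays, 27 over all probe sets, 113 with array weights and 18 to 29 with an array left out. For KO+Mut against KO 248 were higher, 480 with the block, 432 with weights and 109 to 192 with an array left out. For KO+WT against KO 162 were higher, 353 with the block, 71 in the fit of 6 arrays and 80 to 154 with an array left out. For KO+Mut against parental cells 145 were higher, 353 with the block, 248 over all probe sets, 282 with weights and 70 to 118 with an array left out. For KO+WT against parental cells 71 were higher, 237 with the block, 32 in the fit of 6 arrays, 126 over all probe sets, 113 with weights and 34 to 102 with an array left out. The cause of these shifts was not tested, and some of the fits used fewer arrays. Signals of Usp17lb and Usp17lc in KO and parental cells, and of Usp17le on 1 KO array, lay below the lower quartile of their arrays, which limits what can be read from a difference between those groups.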
